A study of Mus musculus with 6 samples.

Results

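The 9 abundant noncoding RNAs described here comprise the nuclear long noncoding RNAs Malat1 and Neat1 and 7 host genes of small nucleolar RNAs (snoRNAs), namely Gas5, Snhg1, Snhg3, Snhg5, Snhg6, Snhg8 and Snhg12. They were chosen by gene symbol, and all 9 were found among the 34245 genes of the expression table. RNA was sequenced from 3 peripheral T-cell lymphomas (PTCL) that arose in Dnmt3b+/- mice on the FVB background (FVB/N in the study's methods). These mice carry a conventional knockout allele of the DNA methyltransferase Dnmt3b in every cell beside a wild-type allele. Each tumor was taken from lymph nodes of a terminally sick mouse, is named tumor 1, 2 or 3 here, and was sequenced as bulk RNA from the tissue. The ages of the mice were not given in the sources used here. Bisulfite sequencing of Dnmt3b+/- and Dnmt3a-/- PTCL was not analysed here. Since there was 1 group, no comparison between genotypes could be made, and the spread over the 3 tumors is the error given throughout as a standard deviation (SD).

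Long noncoding RNAs are transcribed and often spliced like mRNAs but carry no long reading frame. Malat1 accumulates in nuclear speckles, where splicing factors are stored, and its mature end is cut by RNase P instead of being polyadenylated. Neat1 is the scaffold around which paraspeckles form. snoRNA host genes carry snoRNAs in their introns. The snoRNAs are released from the excised introns and guide the modification or cleavage of ribosomal RNA, while the spliced host RNA is exported and, for Gas5 and several others, degraded by nonsense-mediated decay as ribosomes read it. Many hosts begin with a 5′ terminal oligopyrimidine (TOP) tract, a C followed by a run of C or T, which they share with the mRNAs of ribosomal proteins and elongation factors.

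Libraries held 30726570, 18969988 and 20770928 reads in tumors 1, 2 and 3. Levels are FPKM (fragments scaled to the kilobases of exon and to the depth of the library), so length and depth are taken into account when genes are compared. The study's methods do not state whether polyadenylated RNA was selected for the libraries. Malat1, whose mature end is not polyadenylated, may then be captured unlike the hosts, and comparisons of its level with other genes carry this limit. The FPKM still carry the number of reads, so exact Poisson 95% intervals could be given, and these cover counting error only. The 9 RNAs took 0.210%, 0.280% and 0.208% of the reads on genes in tumors 1, 2 and 3. Each of 10 T-cell markers had a mean of at least 1 FPKM. All 8 pancreatic acinar and all 6 B-cell markers did so too, and this level alone therefore does not check the tissue label. Of the T-cell markers, Cd8b1, a chain of the CD8 co-receptor, was the most abundant with 435, 166 and 443 FPKM.

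Promoters of 7 of the 9 RNAs were found in the RefSeq sequences of build GRCm38.p6, with 2 annotated starts for Gas5. Neat1 and Snhg6 had no entry. For Gas5, Snhg1, Snhg5 and Snhg8 the annotated starts used here differ from the starts of the gene spans given further on. For Snhg8 they are 123508336 and 123508404. For Malat1, Snhg3 and Snhg12 the starts are the same. A tract called at the start depends on the start that is used. The windows are shown because 6 of the 7 hosts shared their lowest tumor, as described further on, and because the TOP tract lies at the start of transcription. Each window runs 5′ to 3′ on the strand of the gene, from 50 bases before the annotated start to 25 bases from the start on. Capitals mark the letters TATAA 20 to 45 bases before the start, and the C followed by at least 4 C or T that lies nearest to the start and within 10 bases of it.
Gas5, second start, chr1:161035116-161035190, plus strand: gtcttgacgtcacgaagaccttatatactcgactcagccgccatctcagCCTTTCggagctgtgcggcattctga
Snhg8, chr3:123508312-123508386, minus strand: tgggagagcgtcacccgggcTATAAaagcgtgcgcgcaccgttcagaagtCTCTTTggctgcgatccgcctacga
Snhg12, chr4:132308628-132308702, plus strand: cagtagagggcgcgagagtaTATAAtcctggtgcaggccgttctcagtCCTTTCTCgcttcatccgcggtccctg
Snhg5, chr9:88522873-88522947, minus strand: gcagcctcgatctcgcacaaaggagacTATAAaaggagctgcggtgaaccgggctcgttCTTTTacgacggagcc
Snhg3, chr4:132353662-132353736, minus strand: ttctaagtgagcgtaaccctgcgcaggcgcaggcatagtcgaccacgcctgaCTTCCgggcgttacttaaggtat
Snhg1, chr19:8723437-8723511, plus strand: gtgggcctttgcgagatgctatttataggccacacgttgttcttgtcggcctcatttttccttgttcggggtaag
Malat1, chr19:5802648-5802722, minus strand: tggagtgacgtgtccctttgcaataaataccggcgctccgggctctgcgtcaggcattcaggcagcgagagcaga

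A pyrimidine tract of this kind was found in 5 of the 6 hosts with a promoter, the exception being Snhg1, and in 30.2% of all 32851 promoters. For Gas5 it was found at the second of its 2 starts and not at the first, and a host counts here when any of its starts holds the tract, while the share of all promoters is over single starts. The base at the annotated start was itself a C followed by at least 4 C or T in Snhg8 and at the second start of Gas5, where the marked tract has 1 more C before it. This was so in 2 of the 6 hosts and in 2.51% of all promoters. Within 2 bases of the start it was found in 4 of the 6 hosts, with Snhg12 and Snhg3 added, and in 8.37% of all promoters. TATAA stood 30 bases before the start in Snhg8 and Snhg12 and 23 bases before it in Snhg5. These 3 hosts held TATAA and the tract together, as did 1.30% of all promoters, while TATAA alone was in 3.89% of them. The distances searched were set after the promoters of the members had been read. The counts of hosts are therefore descriptions and no test against the shares of all promoters.

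The other motifs were searched on both strands over 300 bases, from 250 before the start to 50 after it. CCAAT was in Snhg3, Snhg5 and Snhg8, that is in 3 of the 6 hosts, and in 37.4% of all promoters. CACGTG was in 0 of the 6 hosts and in 7.15% of all promoters. GACGTG, which shares the letters ACGTG with it, was in 0 of the 6 hosts and in Malat1, and in 6.38% of all promoters. TTCNNNGAA was in 0 of the 6 hosts and in 8.30% of all promoters. These matches are descriptions of the letters in the windows and say nothing of binding.

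Malat1 (ENSMUSG00000092341, chr19:5795690-5802672, minus strand) was the most abundant of the 9 RNAs. Its level was 52.4, 96.0 and 82.6 FPKM in tumors 1, 2 and 3, with a mean of 77.0 ± 22.3 (SD, n = 3). Tumor 1 stood apart from both other tumors, and the counting intervals of all 3 were disjoint, the lowest being 51.5 to 53.4 FPKM from 11247 reads. Its mean was position 334 in the order of all gene symbols and position 14 among the 11926 long noncoding genes of the table.

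Neat1 (ENSMUSG00000092274, chr19:5824708-5845478, minus strand) lies on the same chromosome and strand. Its level was 22.8, 31.3 and 11.7 FPKM in tumors 1, 2 and 3, with a mean of 21.9 ± 9.83 (SD, n = 3). Neat1 was thus highest in tumor 2, as Malat1 was, but lowest in tumor 3. The interval of tumor 3 was 11.4 to 12.0 FPKM from 5043 reads. The annotation holds Neat1 transcripts of 711 to 20771 bases, and FPKM over the merged exons of 20771 bases does not separate the short from the long form. The ratio of Neat1 to Malat1 was 0.434, 0.326 and 0.142 in tumors 1, 2 and 3, so Neat1 was lowest relative to Malat1 in tumor 3.

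Gas5 (ENSMUSG00000053332, chr1:161034422-161038539, plus strand), which spans 9 annotated snoRNA loci, was the most abundant host. It reached 48.2, 36.9 and 51.1 FPKM in tumors 1, 2 and 3, with a mean of 45.4 ± 7.47 (SD, n = 3) and position 22 among long noncoding genes. Tumors 1 and 3 lay close together, and tumor 2 was lower, with an interval of 35.5 to 38.4 FPKM. The ratio of Gas5 to Malat1 was 0.919 in tumor 1 but 0.385 in tumor 2 and 0.618 in tumor 3.

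Snhg8 (ENSMUSG00000104960, chr3:123507552-123508404, minus strand) spans Snora24, a snoRNA of the H/ACA class. Its level was 20.9, 13.2 and 35.4 FPKM in tumors 1, 2 and 3, with a mean of 23.2 ± 11.3 (SD, n = 3). The intervals were 19.2 to 22.8, 11.5 to 15.1 and 32.7 to 38.3 FPKM, so the tumors differed by more than counting error. In the deposited FPKM, Snhg8 had the largest coefficient of variation of the 9 RNAs, 48.6%, with tumor 3 above the other 2. It was not the most variable when the FPKM sums of the tumors were made equal. The ratio of the highest to the lowest tumor was then 2.90 for Neat1, 2.79 for Snhg1 and 2.48 for Snhg8.

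Snhg1 (ENSMUSG00000108414, chr19:8723475-8726443, plus strand) spans 8 snoRNA loci, among them Snord22. Its level was 23.8, 9.34 and 19.96 FPKM in tumors 1, 2 and 3, with a mean of 17.7 ± 7.47 (SD, n = 3). Tumor 2 stood well below the other tumors, with 526 reads and an interval of 8.56 to 10.2 FPKM. The ratio of Snhg1 to Gas5 was 0.493, 0.253 and 0.391, so in tumor 2 Snhg1 was low also relative to the most abundant host.

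Snhg3 (ENSMUSG00000085241, chr4:132348014-132353686, minus strand), which spans Snora73a and Snora73b, had 18.4, 13.0 and 18.3 FPKM and a mean of 16.6 ± 3.05 (SD, n = 3). Tumors 1 and 3 could not be told apart, with overlapping intervals of 16.9 to 19.98 and 16.5 to 20.2 FPKM. Snhg5 (ENSMUSG00000097195, chr9:88521050-88522929, minus strand), which spans Snord50a and Snord50b, had 16.8, 12.9 and 13.3 FPKM and a mean of 14.3 ± 2.14 (SD, n = 3). For Snhg5 the intervals of tumors 2 and 3 overlapped, and tumor 1 was higher.

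Snhg6 (ENSMUSG00000098234, chr1:9941959-9944118, minus strand), which spans Snord87, was the least abundant, with 10.2, 5.89 and 7.90 FPKM and a mean of 7.98 ± 2.14 (SD, n = 3). Its tumor 2 value rests on 128 reads, with an interval of 4.91 to 7.001 FPKM, which overlaps that of tumor 3 from 6.81 to 9.11 FPKM. Snhg12 (ENSMUSG00000086290, chr4:132308678-132311024, plus strand), which spans Snora16a, Snora44, Snora61 and Snord99, had 10.3, 11.4 and 14.9 FPKM and a mean of 12.2 ± 2.37 (SD, n = 3). Snhg12 was highest in tumor 3, and its intervals in tumors 1 and 2 overlapped. Its values gave whole reads with an exon length of 1626 bases and not with the 2402 bases of the annotation used here, so its intervals rest on a length inferred from the values. The coordinates given for it are those of the deposited table and span 2347 bases, less than this annotated exon length, so the table and the annotation hold different models of the gene. The 27 snoRNA loci inside the 7 hosts had no row of their own and were not analysed here.

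**Figure D1:**
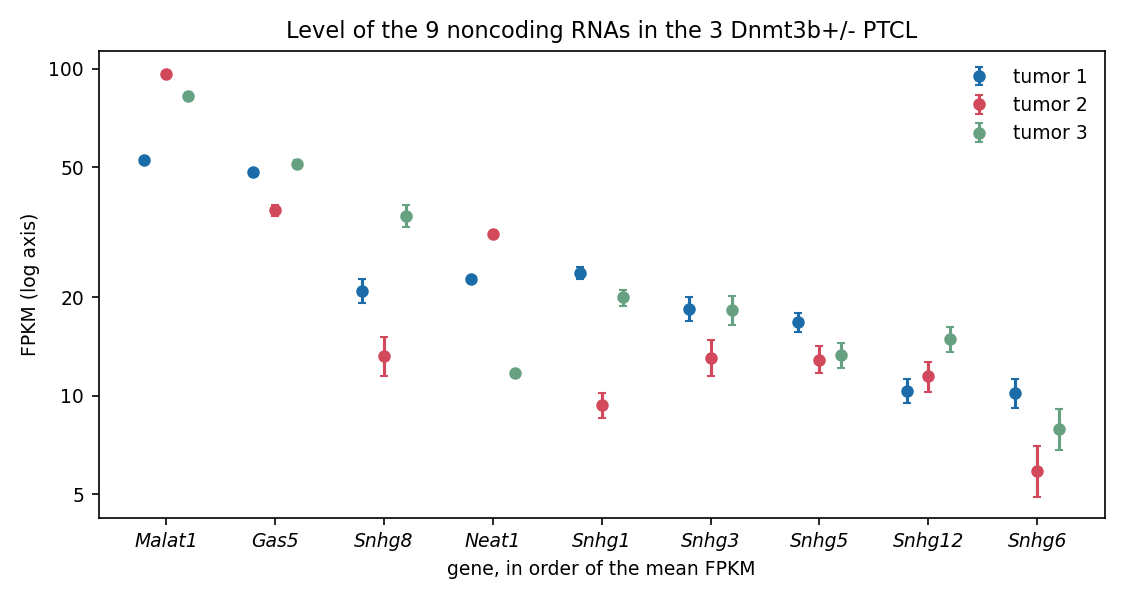
FPKM of the 9 RNAs (log axis) in each of the 3 Dnmt3b+/- PTCL, in order of the mean. Points are single tumors and bars are exact Poisson 95% intervals from the reads; Malat1 lies between 52.4 and 96.0 FPKM and Snhg6 between 5.89 and 10.2 FPKM.

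By mean FPKM the order was Malat1, Gas5, Snhg8, Neat1, Snhg1, Snhg3, Snhg5, Snhg12 and Snhg6. Malat1 exceeded Gas5 by 31.6 FPKM, more than the larger SD of 22.3, and in all 3 tumors. Gas5 exceeded Snhg8 by 22.2 FPKM in the mean, and Snhg12 exceeded Snhg6 by 4.24 FPKM, both with ranges that did not overlap. The 5 other neighbouring pairs, from Snhg8 down to Snhg12, did not differ beyond their spread, although Snhg3 was above Snhg5 in all 3 tumors. Snhg8 and Neat1 differed by 1.29 FPKM against an SD of 11.3, and Snhg8 was the higher of this pair in 1 of the 3 tumors. Of the 9 RNAs, 8 had a mean of at least 10 FPKM, a level reached by 1.42% of the long noncoding genes.

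The summed level of the 9 RNAs was 224, 230 and 255 FPKM in tumors 1, 2 and 3, with a mean of 236 ± 16.6 (SD, n = 3). The 2 parts of the sum had different orders of the tumors. Malat1 and Neat1 together gave 75.2, 127 and 94.3 FPKM, with tumor 2 highest. The 7 hosts together gave 149, 103 and 161 FPKM, with tumor 2 lowest. Without Malat1, the other 8 RNAs summed to 171, 134 and 172 FPKM.

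Malat1 and Neat1 were both highest in tumor 2, as were 33.7% of all genes with a mean of at least 1 FPKM. Of the 7 hosts, 6 were lowest in tumor 2, against 38.3% of those genes, and 5 were so when the FPKM sums of the tumors were made equal, where Snhg5 was lowest in tumor 3. Snhg12 was the exception in both, being lowest in tumor 1. Among the hosts 4 were highest in tumor 1 and 3 in tumor 3, while 50.6% and 15.7% of all genes were highest in these tumors. This split was 5 and 2 with FPKM sums made equal, against 60.7% and 8.69% of all genes, and 3 and 4 with median-of-ratios factors, against 38.8% and 23.8%. The share of genes that are lowest in a given tumor depends on the scaling: over genes above 1 FPKM in every tumor, the median gene was shifted by 0.12 in tumor 1, -0.04 in tumor 2 and -0.07 in tumor 3 on the log2 scale. Relative to these shifts, by median-of-ratios factors, the same 6 hosts were lowest in tumor 2 and Malat1 and Neat1 were highest there.

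**Figure D2:**
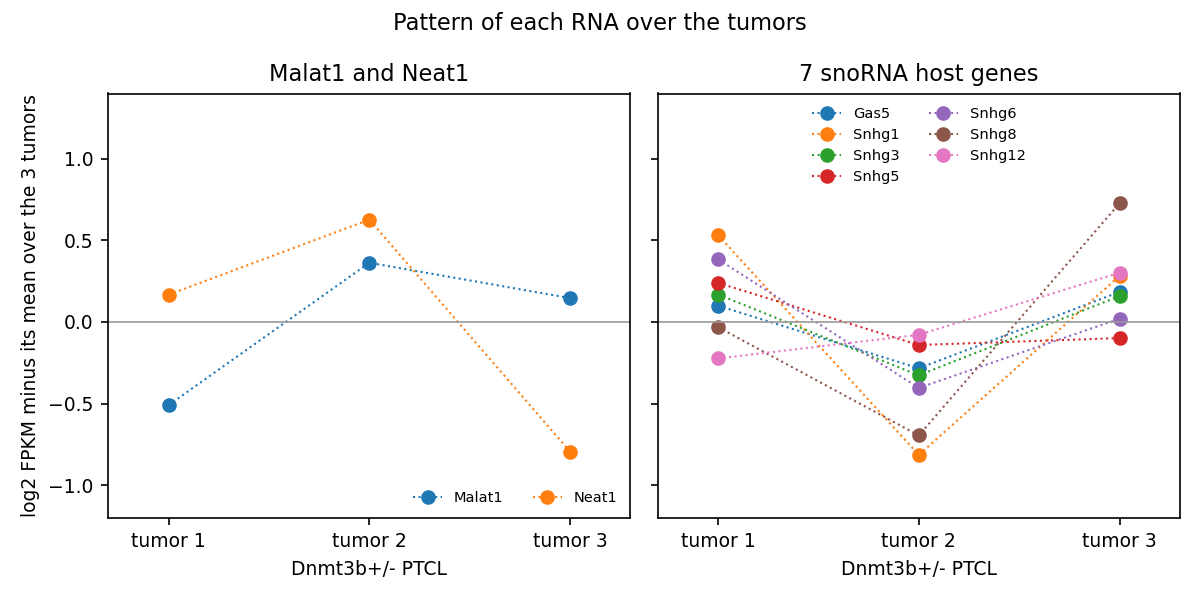
log2 FPKM of each RNA minus its own mean over the 3 tumors, for Malat1 and Neat1 (left) and the 7 snoRNA hosts (right). Points are single tumors, and dotted lines only join the values of an RNA; 6 of the 7 hosts are lowest in tumor 2 (5 with FPKM sums made equal), while Malat1 and Neat1 are highest there.

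The spread between tumors was close to that of other genes. The median ratio of the highest to the lowest tumor was 1.73 over the 9 RNAs and 1.68 over the 11191 genes with a mean of at least 1 FPKM, and the median coefficient of variation was 26.8% in both. For the 7 hosts the median ratio was 1.44, and for 1118 long noncoding genes it was 1.98. Neat1, Snhg1 and Snhg8 passed a ratio of 2, so 3 of the 9 RNAs did, against 34.4% of all genes, which is near the background. Their ratios were 2.68 for Neat1 (95% interval of counting error 2.59 to 2.77), 2.54 for Snhg1 (2.31 to 2.80) and 2.68 for Snhg8 (2.29 to 3.14). Malat1 had a ratio of 1.83, which became 2.04 with median-of-ratios factors. In the deposited scaling the smallest ratio was that of Snhg5, 1.30 (1.16 to 1.47), and Snhg5 was also smallest with median-of-ratios factors, at 1.17. With FPKM sums made equal, however, the smallest ratio was that of Snhg12, 1.21, and no longer that of Snhg5. Without tumor 2 no RNA of the 9 passed a ratio of 2, against 17.6% of all genes, and without tumor 3 Snhg1 alone did, against 26.2%. Without tumor 1 the same 3 RNAs passed, against 15.8%.

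Between pairs of tumors, 1 RNA, Snhg1, was at least 2 times higher in tumor 1 than in tumor 2, against 15.1% of all genes. In the opposite direction 0 of the 9 RNAs passed, against 10.1%. With median-of-ratios factors, however, Malat1 did, with a ratio of 2.04, against 12.6% of all genes. Neat1 was at least 2 times higher in tumor 2 than in tumor 3, as were 11.3% of all genes. Snhg1 and Snhg8 were at least 2 times higher in tumor 3 than in tumor 2, against 5.11% of all genes. Between tumors 1 and 3, 0 of the 9 RNAs passed in either direction, against 13.3% of all genes higher in tumor 1 and 4.45% higher in tumor 3. With FPKM sums made equal, however, Neat1 was 2.31 times higher in tumor 1 than in tumor 3, where 19.7% of all genes passed. Snhg1 was then 1.98 times higher in tumor 3 than in tumor 2 and no longer passed, against 4.23% of all genes.

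**Figure D3:**
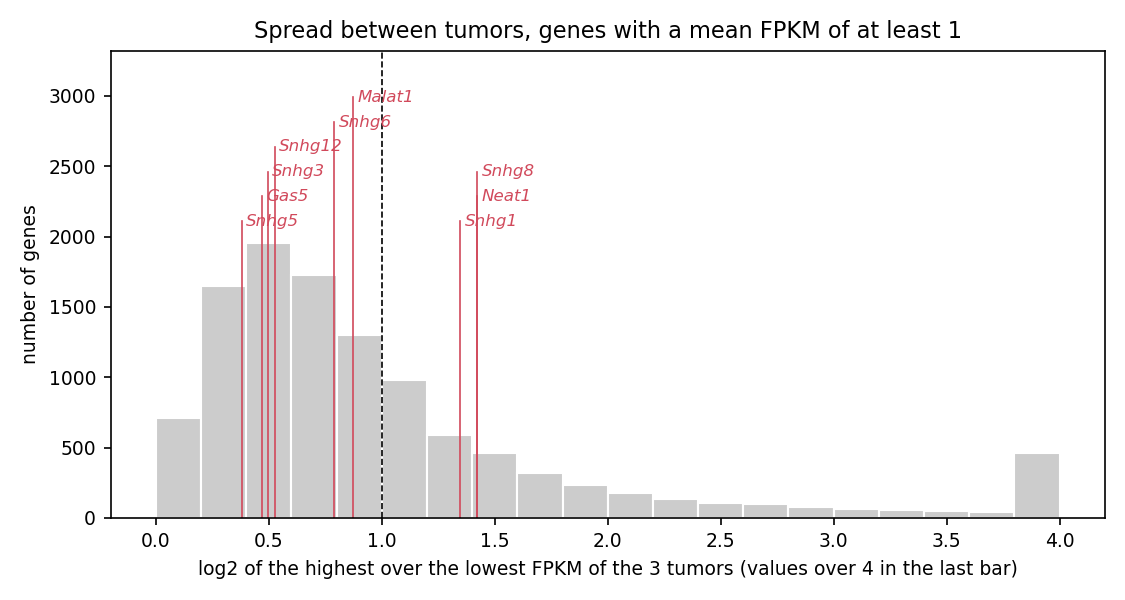
Number of genes (bars) by the log2 of the highest over the lowest FPKM of the 3 tumors, for 11191 genes with a mean of at least 1 FPKM; red lines mark the 9 RNAs and the dashed line a ratio of 2. Neat1, Snhg1 and Snhg8 lie to the right of the dashed line, as do 34.4% of all genes.

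For each RNA, the genes with the most similar pattern were taken by the Euclidean distance of log2 FPKM centred on the mean of the 3 tumors. Nearest to Malat1 were Gemin8, a subunit of the SMN complex, with 1.06, 1.95 and 1.645 FPKM (distance 0.0209), and Sh3pxd2b, an adaptor of podosomes, with a distance of 0.0266. Nearest to Neat1 were the noncoding gene Gm16091, with 6.18, 8.38 and 3.10 FPKM (distance 0.0251), and Zfp579 (0.0412). Near Gas5 were Chmp2b, a subunit of the ESCRT-III complex, with 13.6, 10.3 and 14.4 FPKM (0.0146), and the phosphatase Pptc7 (0.0177). Snhg1 was most like Gm26741, with 10.5, 4.24 and 8.85 FPKM (0.0319), and the lysosomal thiol reductase Ifi30 (0.0407). All of these keep the order of tumors of the RNA they are set beside, which their choice by smallest distance brings about and which is no separate result.

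Snhg3 lay nearest to Xrn2, the nuclear exonuclease, with 49.4, 35.2 and 49.1 FPKM (0.00563), and to the transcription factor Pou2f1 (0.0160). Snhg5 lay nearest to Zpr1, with 12.7, 9.75 and 9.97 FPKM (0.00818), and to Gm16794 (0.00952). Snhg6 lay nearest to Tbcel (0.00514) and Hdhd2 (0.00786), and Snhg12 to Mettl26 (0.0156) and CT009718.4 (0.0216). Snhg8 had the rarest pattern: Mettl18, a methyltransferase of histidine in proteins, had 2.95, 1.78 and 4.84 FPKM (0.0478), and the next gene, the glutathione synthetase Gss, was already at 0.103. Within a distance of 0.1 there was 1 gene for Snhg8 and 10 for Neat1, but 325 for Snhg5. With 3 tumors a pattern holds few values, and many genes share it by this measure. Among the 9 RNAs themselves, Gas5 and Snhg3 were closest (0.0850) and Neat1 and Snhg8 farthest apart (2.03).

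Other genes of the same kinds were described by lists, and counts and largest ratios are over the genes of a list with a mean of at least 1 FPKM. Of 13 genes found in the list of other snoRNA host and TOP noncoding genes, 9 had a mean of at least 1 FPKM, 5 of these passed a ratio of 2, against 34.4% of all genes, and 3 were lowest in tumor 2 under each scaling, against 38.3% of all genes in the deposited scaling. Epb41l4aos had 14.8, 45.5 and 50.9 FPKM, and Zfas1 had 15.5, 11.7 and 10.7 FPKM. The list also holds Rpph1 and Rmrp, the RNA subunits of RNase P and RNase MRP, which are not snoRNA hosts, and without them 4 of 8 genes passed a ratio of 2. Rpph1 had the largest ratio, with 0.408, 4.63 and 8.75 FPKM from 4, 28 and 58 reads.

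Of 25 other long noncoding RNAs found, 12 had a mean of at least 1 FPKM and 8 passed a ratio of 2, or 5 with median-of-ratios factors, against 34.4% and 32.4% of all genes and, in the deposited scaling, 48.8% of long noncoding genes. In this list 9 of the 12 were highest in tumor 1, or 7 of 11 with median-of-ratios factors, against 50.6% and 38.8% of all genes. Xist, the RNA that silences an X chromosome in female cells, had 105, 40.8 and 42.2 FPKM, and Mir142hg, the host of a blood-cell miRNA, had 32.7, 50.2 and 10.02 FPKM. Mir142hg was thus highest in tumor 2 and lowest in tumor 3, the order seen for Neat1. Firre had the largest ratio of the 12, with 2.48, 0.249 and 0.344 FPKM.

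The snoRNP list holds the proteins that bind and assemble snoRNAs. Of 19 found, 18 had a mean of at least 1 FPKM. Of these, 5 passed a ratio of 2 under each scaling, against 34.4% of all genes in the deposited scaling. In this list 8 were lowest in tumor 2, or 9 with FPKM sums made equal and 7 with median-of-ratios factors, against 38.3%, 34.3% and 36.6% of all genes. Nop56, a core protein of C/D snoRNPs, had 44.9, 35.1 and 33.5 FPKM, and Nhp2, a core protein of H/ACA snoRNPs, had 32.7, 37.6 and 43.1 FPKM. Neither was lowest in tumor 2. The assembly factor Nufip1 had the largest ratio, with 4.87, 1.92 and 2.67 FPKM, and was lowest in tumor 2.

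All 19 paraspeckle proteins had a mean of at least 1 FPKM and 3 passed a ratio of 2, or 1 with median-of-ratios factors, against 34.4% and 32.4% of all genes. Of these 19, 5 were highest in tumor 2, where Neat1 was highest, and 4 were so with FPKM sums made equal, against 33.7% and 30.6% of all genes. These 5 had the full order of Neat1, with tumor 3 lowest, and the share of all genes with this order is not given here. In all, 10 of the 19 were lowest in tumor 3, or 13 with FPKM sums made equal and 8 with median-of-ratios factors, against 37.4%, 50.5% and 29.0% of all genes. Nono had 53.8, 80.2 and 81.7 FPKM and Hnrnpk 72.2, 48.7 and 59.0 FPKM. Matr3 had the largest ratio, with 19.1, 7.63 and 13.7 FPKM.

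Of 23 nuclear speckle and Malat1 processing proteins found, 21 had a mean of at least 1 FPKM. Of these 21, 3 passed a ratio of 2, but 7 did with FPKM sums made equal and 0 with median-of-ratios factors, against 34.4%, 39.6% and 32.4% of all genes. In this list 16 genes were highest in tumor 1, where Malat1 was lowest, or 13 with median-of-ratios factors, against 50.6% and 38.8% of all genes. The splicing factor Srsf5 had 142, 82.7 and 102 FPKM. Srsf2, which had the largest ratio of the 21, had 127, 66.8 and 58.7 FPKM.

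Of 16 nonsense-mediated decay factors 1 passed a ratio of 2, or 2 with FPKM sums made equal, against 34.4% and 39.6% of all genes, and the median ratio in the deposited scaling was 1.29. Eif4a3 had 42.9, 33.2 and 33.7 FPKM and Magoh 42.6, 26.2 and 38.5 FPKM, both subunits of the exon junction complex. Upf3a had the largest ratio, with 4.07, 2.74 and 2.01 FPKM. Of the 16 factors, 5 were lowest in tumor 2, where most of the hosts were lowest, or 3 with FPKM sums made equal and 6 with median-of-ratios factors, against 38.3%, 34.3% and 36.6% of all genes.

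Of 22 coding TOP mRNAs and their regulators, 15 were lowest in tumor 1, or 13 with FPKM sums made equal, against 24.3% and 15.2% of all genes. In this list 15 were highest in tumor 3, or 13 with FPKM sums made equal, against 15.7% and 8.69% of all genes. Lowest in tumor 2, as 6 of the 7 hosts were, were 5 of the 22, against 38.3% of all genes. With FPKM sums made equal, 7 of the 22 and 5 of the 7 hosts were, against 34.3% of all genes. With median-of-ratios factors, 5 of the 22 and 6 hosts were, against 36.6%. The counts include regulators: in the deposited scaling Eif4ebp2 was lowest in tumor 2, Eif4ebp1, Mtor and Rptor in tumor 1, and Larp1 in tumor 3. The difference from the hosts was not tested. Eef1a1, the elongation factor that brings aminoacyl-tRNA to the ribosome, had 2891, 2201 and 3813 FPKM, lowest in tumor 2 as for most hosts. Rplp0, a protein of the ribosomal stalk, had 1063, 1919 and 2667 FPKM, lowest in tumor 1. Eif4ebp1 had the largest ratio, with 0.652, 1.92 and 1.43 FPKM. A ratio of 2 was passed by 7 of the 22 genes, or by 12 with median-of-ratios factors, against 34.4% and 32.4% of all genes.

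**Figure D4:**
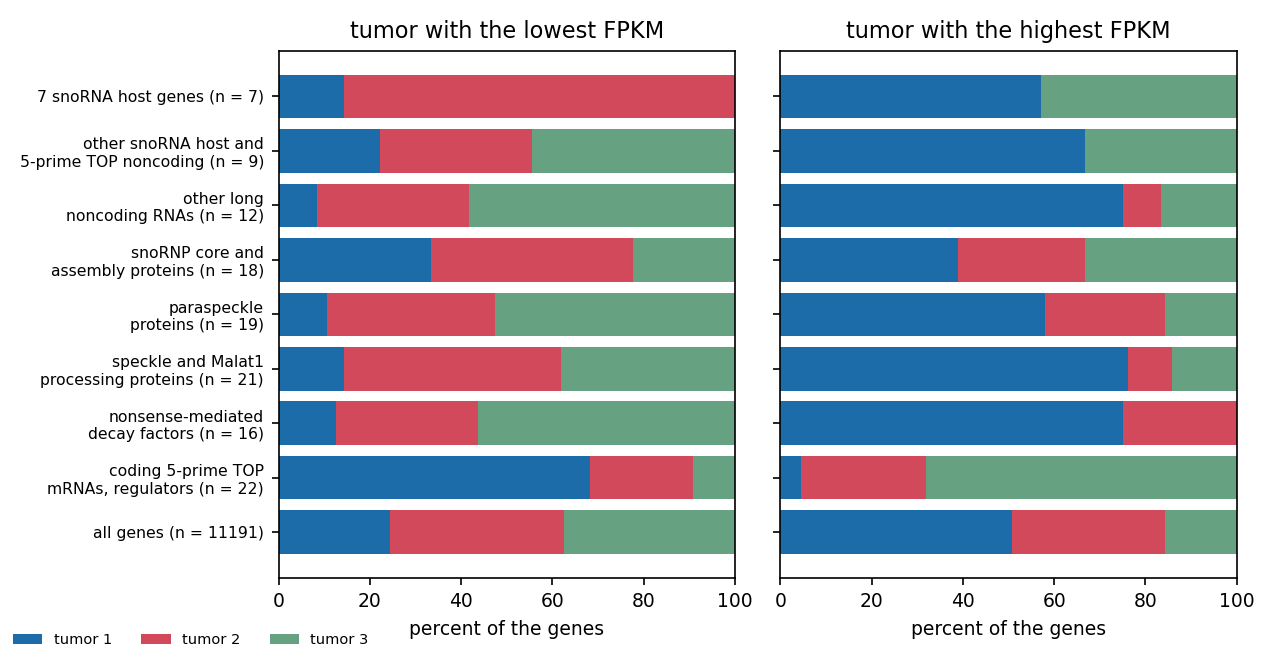
Percent of the genes of each list whose lowest (left) and highest (right) FPKM was in tumor 1, 2 or 3, for genes with a mean of at least 1 FPKM in the deposited scaling; n is the number of genes. Tumor 2 holds the lowest value of 6 of the 7 hosts (5 with FPKM sums made equal) and of 38.3% of all genes.

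Genes that overlap a member or start within 5 kb of it were looked at, since reads of overlapping genes on opposite strands cannot be told apart without strand, and the use of strand was not given in the sources used here. Inside Malat1, on the opposite strand, lie Gm20417, with 46.0, 52.1 and 55.4 FPKM, and Gm37376, with 67.9, 83.0 and 83.2 FPKM. All 453 exon bases of Gm37376 are also exon bases of Malat1, 6.49% of its length. Levels of Malat1 and of these genes are therefore uncertain by the reads they may share.

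Snhg1 and Slc3a2, a chain of amino acid transporters, start 106 bases apart on opposite strands and share no exon base. Slc3a2 had 19.1, 40.8 and 22.3 FPKM in tumors 1, 2 and 3, with a mean of 27.4 ± 11.7 (SD, n = 3), so it was highest in tumor 2, where Snhg1 was lowest. The ratio of Snhg1 to Slc3a2 was 1.24, 0.229 and 0.894. Neither scaling nor depth enters this ratio, which was 5.43 times larger in tumor 1 than in tumor 2.

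Snhg3 overlaps Rcc1, the nucleotide exchange factor of Ran, on the same strand, with starts 81 bases apart and 135 shared exon bases. Rcc1 had 8.84, 8.21 and 8.95 FPKM, a narrower spread than that of Snhg3. Gm17300, on the opposite strand, had 14.7, 10.2 and 13.3 FPKM and shares 705 exon bases with Snhg3, which are 71.5% of the exon bases of Snhg3. The level of Snhg3 is thus the least certain of the 9 in this respect.

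Zbtb37 overlaps the 5′ end of the Gas5 span by 428 bases on the opposite strand and shares no exon base with it. It had 2.65, 2.29 and 2.17 FPKM. Gm37362, upstream of Gas5, had 0.616, 0.333 and 0.456 FPKM. Frmd8os starts 145 bases from Neat1 on the opposite strand and had 3.72, 2.15 and 3.78 FPKM, so its lowest tumor was the highest tumor of Neat1. Mcmdc2 overlaps Snhg6 on the opposite strand and shares 127 exon bases with it, which are 11.1% of the exon bases of Snhg6. Mcmdc2 had 9, 0 and 1 reads, against 358, 128 and 188 reads of Snhg6. For Snhg5, Snhg8 and Snhg12 no such gene was found.

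The FPKM also depend on which bases count as exon. Merged exons cover 100% of the span of Malat1, Neat1, Snhg1 and Snhg8, 92.0% for Snhg5, 91.3% for Gas5, 69.3% for Snhg12 by its inferred length, 53.1% for Snhg6 and 17.4% for Snhg3. Malat1 and Neat1 each have an annotated transcript over their whole span. Unspliced RNA can add more to the values of a host where more of its span is counted as exon. In the other direction, reads of a spliced RNA are divided by the merged length, which lowers its FPKM where its transcripts are shorter. Merged exons of Gas5 hold 3760 bases and its annotated transcripts 346 to 2556, and those of Snhg1 hold 2969 against 312 to 2728. Comparisons of level between the RNAs carry both limits, and their size was not tested. Each RNA was measured over the same bases in the 3 tumors.

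Markers of other cell types also differed between the tumors, and in bulk tissue fewer cells of a type and less RNA per cell cannot be told apart. Tumor 2, where the summed level of the hosts was lowest and Malat1 and Neat1 were highest, had the highest level of pancreatic acinar markers. All 8 of them had the order tumor 2, tumor 1, tumor 3, with sums of 83.6, 430 and 0.653 FPKM, and the most abundant, Ctrb1, had 33.9 and 198 FPKM in tumors 1 and 2. In tumor 3 Ctrb1 and Cel, the latter named because of its value, were listed without a read, which allows up to 0.165 FPKM of Ctrb1 from 3 reads. This order of the tumors is that of Neat1, and the share of all genes with it is not given here. Of 5 stromal markers 4 had the same order, with sums of 10.2, 42.1 and 0.349 FPKM, and Col1a1 had 1.63, 15.5 and 0.315 FPKM. The part of these cells in the results was not tested.

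Of 6 B-cell markers 5 were lowest in tumor 2, against 38.3% of all genes, the exception being Cd22, which is named because of its value. Their sums were 62.1, 50.2 and 118 FPKM, and Cd79a, the most abundant, had 23.1, 7.31 and 49.0 FPKM. Of the 10 T-cell markers 5 were lowest and 4 were highest in tumor 2, against 38.3% and 33.7% of all genes. Their sums of 1322, 994 and 1387 FPKM were lowest in tumor 2, but in the deposited scaling their medians of 94.5, 103 and 98.1 FPKM were highest there. With FPKM sums made equal the median was no longer highest in tumor 2. Plasma cell markers summed to 862, 199 and 217 FPKM, led by Jchain with 814, 185 and 179 FPKM, which was lowest in tumor 3. With FPKM sums made equal the plasma cell sums of tumors 2 and 3 were nearly the same, 198.99 and 199.98 FPKM. Neutrophil markers summed to 36.5, 1.39 and 15.4 FPKM, led by S100a9 with 22.6, 1.01 and 10.4 FPKM, while the defining marker Ly6g, named because of its value, had 1, 0 and 0 reads. T-cell, B-cell, plasma cell and neutrophil sums were thus lowest in tumor 2 under each scaling. The sum of the hosts was lowest there too, and the part of these cells in the result was not tested.

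Macrophage and erythroid markers had the highest sum in tumor 1 and the lowest in tumor 3 under each scaling. Endothelial markers did so in the deposited scaling and with FPKM sums made equal, but with median-of-ratios factors their sums were 12.5, 13.1 and 5.40, highest in tumor 2. Macrophage markers summed to 436, 147 and 36.6 FPKM, led by Lyz2 with 215, 33.1 and 20.3 FPKM. Erythroid markers summed to 202, 38.4 and 4.74 FPKM, led by Hba-a1 with 92.3, 19.6 and 1.90 FPKM, and endothelial markers to 13.6, 12.8 and 5.13 FPKM, led by Pecam1 with 12.2, 10.9 and 4.86 FPKM. All 13 mitochondrially encoded mRNAs, mt-Atp8 among them, were listed without a read in every tumor, so no share of mitochondrial RNA could be given.

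**Figure D5:**
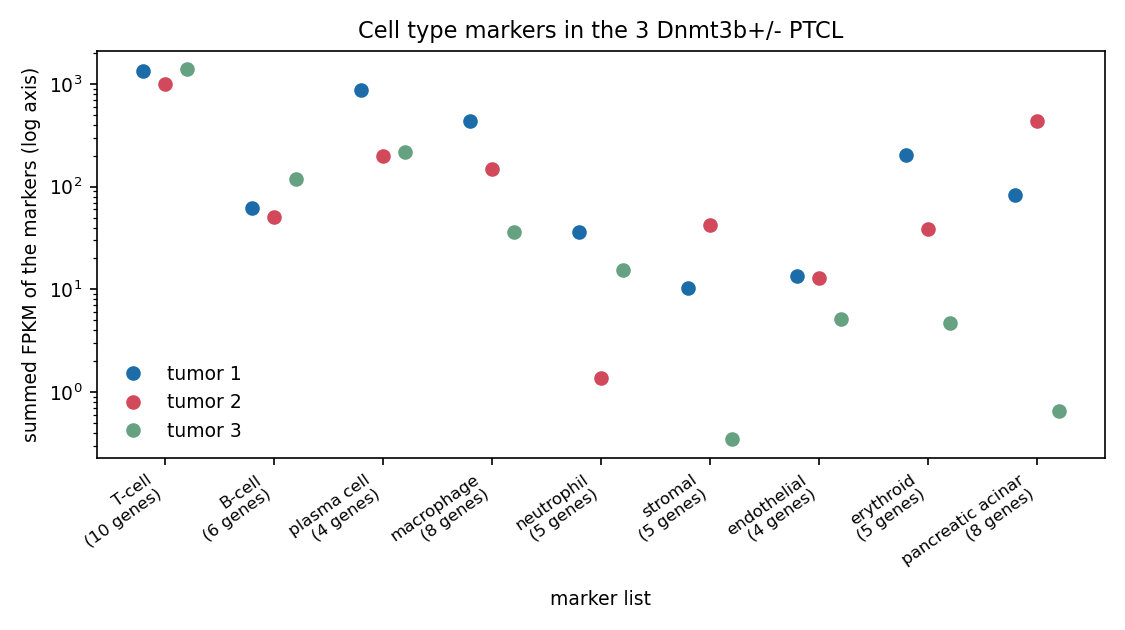
Summed FPKM (log axis) of the markers of each cell type in each of the 3 tumors. Pancreatic acinar markers range from 0.653 FPKM in tumor 3 to 430 FPKM in tumor 2, while T-cell markers stay between 994 and 1387 FPKM.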

How the data were processed

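RNA-seq (paired-end, 150 bp) of 3 Dnmt3b+/- PTCL was used. The authors trimmed the reads, used STAR with the mm10 genome for alignment and the SeqMonk pipeline for quantification (minimum mapping quality 50), and the deposited values are FPKM. The sequencer is named differently in the labels and the study's methods. Versions of STAR and SeqMonk were not given in the sources used here.

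The value of a gene with no reads equals 0.9 read, which gave the depth of each library. Reads were recovered with merged exon lengths of GENCODE M21, and 92.4%, 92.5% and 92.5% of the values in tumors 1, 2 and 3 came out whole within 0.05 read. The steps were tested on simulated data. For Snhg12, exon lengths from 200 to 2402 bases were searched, and 1 length gave whole reads in all tumors within 0.01 read. For repeated symbols the gene with the highest mean was used, and 26 symbols that had become dates were restored. Genes with a mean of at least 1 FPKM formed the background, and no pseudocount was used. Intervals are exact Poisson, and those of ratios come from exact Clopper-Pearson intervals of reads. Intervals were computed with SciPy 1.17.1 and tables with pandas 2.3.3 and NumPy 2.4.6 under Python 3.11.15, and plots were drawn with matplotlib 3.10.9. Promoters are from RefSeq (GRCm38.p6).

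Named genes are the 9 members, the 2 genes with the nearest pattern to each, in each functional list the 2 most abundant genes and the 1 with the largest ratio, the most abundant gene of each marker list, and genes that overlap a member or start within 5 kb. The regulators in the list of coding TOP mRNAs are named too. Members and lists were chosen with earlier results of these data known. The distances from the start within which TATAA and the pyrimidine tract were searched were set after the promoters of the members had been read.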

Additional observations from a re-analysis of the deposited data

How the results depend on the processing

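No paired analysis was possible because the values come from 1 group of 3 tumors and no test was made. With a fold of 1.5 in place of 2, 5 of the 9 RNAs passed, and with a fold of 3, 0 did, against 62.8% and 16.5% of all genes. Leaving out each tumor in turn gave 0 to 3 RNAs past 2-fold and a median ratio of 1.29 to 1.41 in place of 1.73, since the ratio then spans 2 tumors. The count stayed at 3 with a filter of 0.2 FPKM, of 10 FPKM (over 8 RNAs) and none, against 43.4%, 27.7% and 29.5% of all genes, and with log2(FPKM + 1), against 23.7%. It was 3 with FPKM sums made equal, against 39.6%, and 4 with median-of-ratios factors, against 32.4%. The order of levels was the same under both rescalings, and 6 to 7 of its 8 neighbouring pairs kept their order without a tumor. The counts of hosts lowest, and of Malat1 and Neat1 highest, in tumor 2 and the pairs of tumors, marker sums and the host list were rerun under settings chosen after seeing the data: 5 of the 7 hosts were lowest with FPKM sums made equal, 6 with median-of-ratios factors, 7 without tumor 1 and 6 without tumor 3, against 34.3%, 36.6%, 45.3% and 58.6% of all genes. The endothelial marker sum of tumor 1 over that of tumor 2 turned from 1.06 to 0.954 with median-of-ratios factors. Under both rescalings mean levels and sums moved by less than 1 SD. Counting error is largest for Snhg6, with 128 reads in tumor 2.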
